A study of Mus musculus with 8 samples.

Results

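The melanocytes of the choroid, the vascular and pigmented layer behind the retinal pigment epithelium (RPE), were followed in mouse eyecups through 8 genes that mark or guide them. The genes were taken by symbol from a list of neural crest melanocyte genes that the RPE mostly lacks, and all 8 were found among the 31053 gene identifiers of the count tables. They were the endothelin receptor gene Ednrb, the receptor tyrosine kinase genes Kit and Erbb3, the Kit ligand gene Kitl, the melanocortin receptor gene Mc1r, the transcription factor genes Pax3 and Sox10, and the melanosome transport gene Mlph.

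RNA was measured at postnatal day 11 (P11) in eyecups of untreated C57/Bl6 mice. The 4 Bbs8+/+ libraries were labelled wild type and came from littermates of the mutants, and the 4 Bbs8-/- libraries were labelled knockout of Bbs8, a gene of the BBSome, a protein complex that moves cargo in cilia. The knockout was described without a tissue-specific driver, so that RPE, choroid, sclera and nerves of the mutant eyes shared the genotype. Eyecups were homogenised whole once the anterior eye and the retina were taken off, and transcript ends were counted by QuantSeq 3′ mRNA sequencing.

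Choroidal melanocytes descend from the neural crest, whereas the RPE grows out of the optic vesicle and makes its own pigment. Melanoblasts depend on endothelin 3 acting through Ednrb and on Kit with its ligand, and their identity is set by Sox10, Pax3 and Mitf. Several of these genes also serve other cells of an eyecup. Schwann cells use Sox10 and Erbb3, mast cells need Kit, glia and vascular cells carry Ednrb, and Kitl is made mainly by the neighbours of melanocytes. Ednrb was also on the list of adult RPE genes that the study used, so the description of genes that the RPE mostly lacks does not hold strictly for it. In RNA of whole eyecups, fewer cells of a type and less RNA per cell cannot be told apart.

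The sequences before the start sites of 3 genes are printed here because they belong to the member that changed (Ednrb) and to the members with a match to a motif of the kind that MITF, the master regulator of melanocytes, binds (Mlph and Mc1r). Each is the 250 bases that precede a RefSeq transcript start on GRCm38.p6, the assembly also called mm10, written 5′ to 3′ on the strand of the gene, and capitals mark matches to the E-boxes CACGTG or CATGTG. The Ednrb window is chr14:103843702-103843951 on the minus strand, the Mlph window is chr1:90914850-90915099 on the plus strand and the Mc1r window is chr8:123406832-123407081 on the plus strand.
Ednrb: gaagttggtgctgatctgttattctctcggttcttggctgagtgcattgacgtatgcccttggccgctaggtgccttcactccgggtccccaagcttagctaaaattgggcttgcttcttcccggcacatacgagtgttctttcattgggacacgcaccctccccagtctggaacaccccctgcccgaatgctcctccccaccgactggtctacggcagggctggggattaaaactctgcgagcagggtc
Mlph: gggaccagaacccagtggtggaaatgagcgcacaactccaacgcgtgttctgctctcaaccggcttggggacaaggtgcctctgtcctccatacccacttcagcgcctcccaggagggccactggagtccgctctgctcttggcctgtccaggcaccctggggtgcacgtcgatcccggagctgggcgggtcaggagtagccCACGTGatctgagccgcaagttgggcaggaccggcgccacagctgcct
Mc1r: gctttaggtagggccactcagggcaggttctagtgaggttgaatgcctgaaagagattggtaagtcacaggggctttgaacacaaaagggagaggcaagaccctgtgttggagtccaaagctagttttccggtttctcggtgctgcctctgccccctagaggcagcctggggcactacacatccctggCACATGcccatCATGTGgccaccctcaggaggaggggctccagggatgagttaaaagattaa

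The Ednrb window held none of the 4 motifs searched on both strands, which were the E-box CACGTG, the E-box CATGTG and the SOX core motifs ACAAAG and ACAATG. It lies inside the Ednrb gene of the GENCODE M21 annotation, whose outermost start is further upstream. The Mlph window held CACGTG 48 bases before the start. The Mc1r window held CATGTG 51 bases before the start and again, on the opposite strand where it reads CACATG, 62 bases before it. Windows were at hand for 5 of the 8 genes and numbered 6, since Kit has 2 starts, and CACGTG and CATGTG were each found in 1 of them and the SOX motifs in 0. Of all 32851 RefSeq windows of this length, 6.02% held CACGTG, 12.3% CATGTG, 16.5% ACAAAG and 10.7% ACAATG. These matches describe letters and were not tied to binding.

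The libraries held 2159295 to 2884983 counts in genes in Bbs8+/+ and 1636725 to 2179761 in Bbs8-/-. At these totals 3 counts corresponded to 1.04 to 1.83 CPM (counts scaled to a library total of 1000000). Ttc8, the symbol of Bbs8, was at 14.7 to 21.6 CPM in wild-type libraries and at 2.29 to 9.70 CPM in mutant libraries, with 5 to 16 counts left in the latter (log2 fold change -1.95, SE 0.32, edgeR FDR 2.74e-06). All 8 libraries held both Xist, which is made in females, and transcripts of 4 Y-linked genes, although the study counted each animal as a replicate. The Y-linked sum was 59.0 to 64.9 CPM in Bbs8+/+ and 108 to 119.5 CPM in Bbs8-/-, and Xist was at 640.5 to 746 and 570.0 to 625 CPM, so the make-up by sex moved with genotype and the p-values below measure the spread between libraries, which may be technical. RPE markers such as Rpe65 and Rlbp1 were present throughout, at 1743 CPM and 753 CPM or more, whereas Best1 never exceeded 10 counts and was at 0 CPM in the lowest wild-type library. The 14 RPE markers, of which Ttr made up the larger part, summed to 18280 to 19280 CPM in Bbs8+/+ and 19820 to 20110 CPM in Bbs8-/-, and 2 were called higher (Otx2, log2 fold change 0.48, FDR 6.01e-12, and Krt18, 0.26, FDR 0.0185, a call lost without Bbs8+/+ replicate 1 or 2 or Bbs8-/- replicate 1, at FDR 0.0601, 0.0871 and 0.0627). Lens markers summed to 50.7 to 65.9 CPM in Bbs8+/+ and 339 to 381 CPM in Bbs8-/-, and surface epithelium markers to 14.9 to 20.6 and 0 to 0.607 CPM. Of these, edgeR and DESeq2 each called 5 of 10 lens markers higher (DESeq2 with no adjusted p for the other 5). The 3 tested surface markers were called lower by edgeR, where DESeq2 called 0 and gave no adjusted p for the 3. These 3 reached 1 CPM, needed in 4 libraries for a test, in Bbs8+/+ libraries only, so that they could only come out lower. The part of both lists in the results below was not tested. Muscle markers overlapped, at 719.9 to 776 and 731 to 829.6 CPM, and of 6 tested edgeR and DESeq2 each called 0 (DESeq2 with no adjusted p for 3), with 0 at an unadjusted p under 0.05. Of the 13813 genes tested, 309 (2.24%) were called at a false discovery rate (FDR) of 0.05, of which 152 (1.1%) were higher and 157 (1.14%) lower in Bbs8-/-.

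Of the 8 melanocyte genes, which all passed the filter on low values, Ednrb fell in Bbs8-/- eyecups and the other 7 did not pass the test. The 1 gene called is 12.5% of the list, beside 2.24% of all genes tested. Point estimates were below 0 for 7 of 8 genes, and for 6 or 7 over 18 alternative ways of processing. The median log2 fold change over the list was -0.19, beside -0.0041 over all genes tested, of which 50.5% were below 0. The genotypes did not overlap for Ednrb, Pax3 and Erbb3, which is 37.5% of the list, beside 7.38% of all genes tested, or 3.76% counting those lower in Bbs8-/-, as these 3 were. No gene of the list was called higher by edgeR, none had a positive difference at an unadjusted p under 0.05, and DESeq2 called 0 higher. At that unadjusted level 4 were lower (Ednrb, Erbb3, Mlph and Kitl), where 6.6% of all genes tested were, and DESeq2 called 1 lower, with no adjusted p for Mc1r and Erbb3. Added over the list, the levels summed to 788 to 853 CPM in Bbs8+/+ and 674 to 738 CPM in Bbs8-/-.

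**Figure D1:**
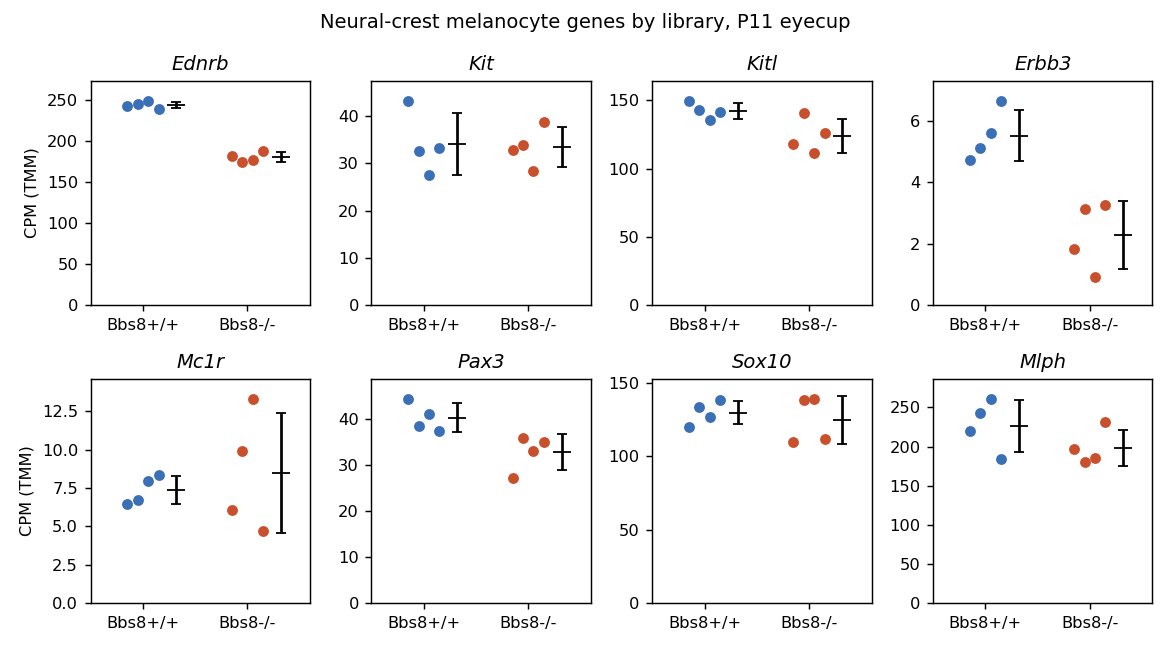
Level of each of the 8 melanocyte genes in CPM (linear axes from 0, one panel per gene), with 1 point per library (blue, Bbs8+/+; red, Bbs8-/-) and black bars for the mean ± SD of 4 libraries. The genotypes are apart for Ednrb, Erbb3 and Pax3 and overlap for Kit, Kitl, Mc1r, Sox10 and Mlph.

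Ednrb encodes the B-type endothelin receptor, through which endothelin 3 keeps melanoblasts dividing and migrating. The gene (ENSMUSG00000022122, chr14:103814625-103844402, minus strand) was at 243, 245, 248 and 239 CPM in wild-type libraries 1 to 4 and at 182, 174, 178 and 188 CPM in mutant libraries 1 to 4, the order used for every gene here. The highest mutant library lay well below the lowest wild-type library, and the libraries of each genotype lay close together. The means were 244 ± 3.87 and 180.4 ± 5.79 CPM (SD, n = 4 each). Ednrb fell by 26.0% (95% interval -33.4 to -17.9%), or by 0.43 on the log2 scale (standard error, SE, 0.076, edgeR quasi-likelihood test, FDR 1.97e-05). This value rested on 532 to 685 counts per wild-type library and 300 to 402 per mutant library. Among all genes tested Ednrb had rank 55 by FDR, and rank 24 among the genes that fell. Its change was of the usual size for a called gene, whose median absolute log2 fold change was 0.435.

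The ligand and the processing enzyme of this receptor fell with it. Edn3, the ligand that melanoblasts need, was at 250.3 to 320.5 CPM in Bbs8+/+ and 208 to 235 CPM in Bbs8-/- (log2 fold change -0.35, SE 0.074, FDR 0.000763). Ece1, the protease that cuts endothelins into their active form, was at 107 to 128 and 85.5 to 96.1 CPM (log2 fold change -0.42, SE 0.10, FDR 0.00621), a call lost with libraries thinned to equal depth (FDR 0.138). Neither overlapped between genotypes. The remaining 4 tested partners did not pass the test: the other receptor gene Ednra (log2 fold change -0.20, FDR 0.655), the G protein genes Gna11 (-0.30, FDR 0.285) and Gnaq (-0.09, FDR 0.799), and Edn1, a ligand made by endothelium (0.16, FDR 0.873). Edn2 and Ece2 had 0 counts in every library. Thus 2 of 6 tested genes of the endothelin list were called lower and 0 higher, with DESeq2 giving the same counts (no adjusted p for 1) and 3 lower and 0 higher at an unadjusted p under 0.05, and the list's median log2 fold change was -0.25.

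Kit and its ligand did not pass the test. Kit, the receptor that melanoblasts need to survive (ENSMUSG00000005672, chr5:75574916-75656722, plus strand), was at 43.1, 32.6, 27.6 and 33.2 CPM in wild type and 32.8, 33.9, 28.4 and 38.8 CPM in the mutant. The mutant libraries all lay within the wild-type range. Its log2 fold change was -0.03 (SE 0.17, 95% interval -0.37 to 0.31, FDR 0.974). Kitl, which encodes stem cell factor (ENSMUSG00000019966, chr10:100015630-100100416, plus strand), was at 149, 143, 135 and 141 CPM in Bbs8+/+ and 118, 140.4, 111 and 126 CPM in Bbs8-/-. Mutant library 2 lay among the wild-type values and the other 3 below them. For Kitl, the log2 fold change was -0.20 (SE 0.092, 95% interval -0.38 to -0.02, FDR 0.326).

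Mast cells are the other Kit-dependent cells of the eyecup, and 2 of their markers rose. Their 10 markers summed to 65.1 to 91.2 CPM in Bbs8+/+ and 127 to 132 CPM in Bbs8-/-, and of the 7 tested 2 were called higher and 0 lower. These were the tryptase genes Tpsb2 (22.6 to 41.6 CPM on average, log2 fold change 0.88, FDR 0.000362) and Tpsab1 (8.70 to 27.6 CPM, log2 fold change 1.67, FDR 2.37e-07), while Fcer1a and Ms4a2 did not exceed 3 counts in any library. The part of mast cells in the level of Kit was not tested. Of 7 signalling partners of Kit, all tested, edgeR and DESeq2 each called 0 in either direction, 1 was lower and 1 higher at an unadjusted p under 0.05, and the median log2 fold change was 0.05. The one lower at that level was Pik3r1, a regulatory subunit of phosphoinositide 3-kinase (log2 fold change -0.23, FDR 0.0909), and the one higher was the adaptor gene Gab2 (0.24, FDR 0.277). Cbl, which encodes a ubiquitin ligase that turns Kit over, and Spred1, an inhibitor of Ras signalling, were at -0.01 (FDR 0.98) and 0.06 (FDR 0.898).

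Erbb3, the neuregulin receptor gene of crest cells and Schwann cells (ENSMUSG00000018166, chr10:128567523-128589652, minus strand), had few reads, with 11, 13, 12 and 19 counts in wild type and 3, 6, 2 and 7 in the mutant. In CPM these were 4.74, 5.11, 5.60 and 6.63 in Bbs8+/+ and 1.82, 3.13, 0.917 and 3.27 in Bbs8-/-. The genotypes did not overlap, but the mutant levels were near the level of 3 counts. Its log2 fold change was -1.26 (SE 0.53, 95% interval -2.31 to -0.21) and did not pass the test over all genes (FDR 0.261). Of 7 neuregulin partners 3 were tested, and edgeR and DESeq2 each called 0 in either direction (DESeq2 with no adjusted p for 2), with 1 lower and 0 higher at an unadjusted p under 0.05. That gene was the receptor Erbb4 (log2 fold change -1.54, FDR 0.369), while the partner receptor Erbb2 was at -0.08 (FDR 0.955) and Egfr at -0.06 (FDR 0.895). The ligand genes Nrg1, Nrg2, Nrg3 and Nrg4 did not exceed 3 counts in any library.

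**Figure D2:**
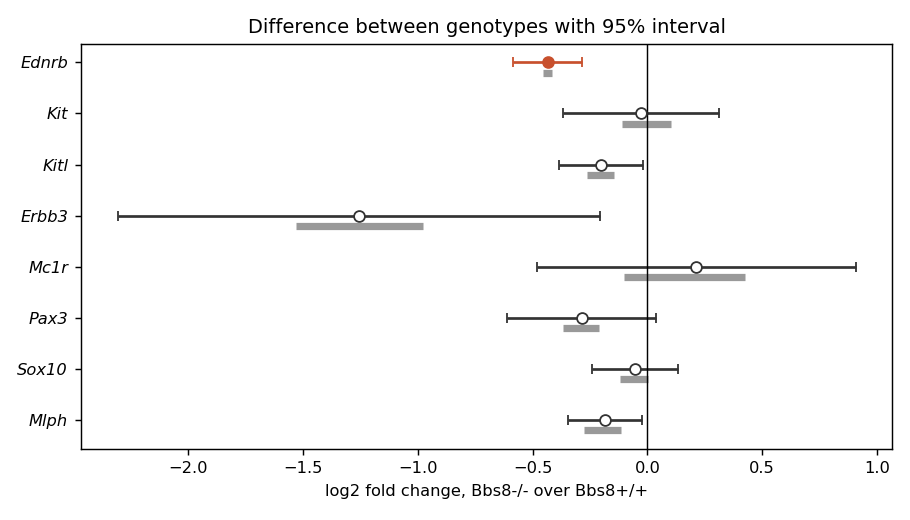
Log2 fold change of each melanocyte gene in Bbs8-/- over Bbs8+/+ (horizontal axis), with the 95% interval of the edgeR fit (thin bars) and the range of the estimate over 18 alternative ways of processing (grey bars under each point). The filled red point, Ednrb, is the only one past an FDR of 0.05, and Kit, Mc1r and Sox10 cross 0 in some alternatives.

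Mc1r, the receptor for melanocyte-stimulating hormone that switches melanocytes to black pigment (ENSMUSG00000074037, chr8:123407107-123410744, plus strand), was also low, with 15 to 24 counts per Bbs8+/+ library and 10 to 29 per Bbs8-/- library. Its level was 6.46, 6.68, 7.94 and 8.38 CPM in Bbs8+/+ and 6.07, 9.92, 13.3 and 4.67 CPM in Bbs8-/-. The mutant libraries spread on both sides of the wild-type values. Its log2 fold change was 0.21 (SE 0.35, 95% interval -0.48 to 0.91, FDR 0.871). An annotated antisense gene, Gm38092, overlaps an exon of Mc1r and has no row of its own in the tables, and whether its reads were kept apart by strand is not given in the sources used here. Of 8 melanocortin partners 3 were tested and 1 was called lower by edgeR and by DESeq2, with 0 higher. This was Gnas, which encodes the stimulatory G protein subunit that many receptors share (1884 ± 106 to 1600.0 ± 99.9 CPM, SD, n = 4, log2 fold change -0.24, FDR 9.63e-05). The attractin gene Atrn and the ubiquitin ligase gene Mgrn1, whose loss darkens the coat, were at -0.03 (FDR 0.964) and 0.08 (FDR 0.857). The hormone precursor gene Pomc, the agouti gene, the accessory protein genes Mrap and Mrap2 and the protease gene Corin did not exceed 3 counts in any library.

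The crest transcription factor genes Pax3 and Sox10 did not pass the test. Pax3, which acts with Sox10 to turn on Mitf (ENSMUSG00000004872, chr1:78101267-78197134, minus strand), was at 44.4, 38.5, 41.1 and 37.4 CPM in Bbs8+/+ and 27.3, 36.0, 33.0 and 35.0 CPM in Bbs8-/-. Every mutant library lay below every wild-type library, with a narrow gap between them. Pax3 had a log2 fold change of -0.29 (SE 0.16, 95% interval -0.61 to 0.04, FDR 0.476). Sox10, which marks melanocytes and Schwann cells alike (ENSMUSG00000033006, chr15:79154908-79165240, minus strand), was at 120.2, 133, 126.5 and 138 CPM in Bbs8+/+ and 109.8, 138, 139 and 112 CPM in Bbs8-/-. The mutant libraries were split, with 2 just above the highest wild-type library and 2 below the lowest. Sox10 had a log2 fold change of -0.05 (SE 0.095, FDR 0.878), and its 95% interval of -0.24 to 0.13 did not reach the point estimate of Ednrb.

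Schwann cell and glia markers, which share Sox10 and Erbb3 with melanocytes, summed to 675 to 751 CPM in Bbs8+/+ and 521 to 572 CPM in Bbs8-/-. Of the 16, all tested, 4 were called lower and 0 higher, and the median log2 fold change was -0.37. Those called included Mal, which encodes a membrane protein of myelin (log2 fold change -1.05, FDR 0.00181), and S100b, a calcium-binding protein gene of glia and melanocytes (-0.46, FDR 5.56e-06). S100b fell from a mean of 258 to 187 CPM, where the mean sum of the list went from 717 to 549 CPM. The remaining 12 did not pass the test, and 2 of the 16 point estimates were above 0. The part of Schwann cells in the levels of Sox10, Erbb3 and Ednrb was not tested.

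Other transcription factor genes of the lineage were lower where they passed the test. Of 10 genes 9 were tested, edgeR and DESeq2 each called 3 lower and 0 higher (DESeq2 with no adjusted p for 3), 5 were lower and 0 higher at an unadjusted p under 0.05, and the median log2 fold change was -0.33. Mitf, which the RPE also expresses, was at 235 to 299 CPM in Bbs8+/+ and 182 to 233 CPM in Bbs8-/- (log2 fold change -0.36, SE 0.076, FDR 0.00067). Sox9 fell from a mean of 219.6 to 174 CPM (log2 fold change -0.33, FDR 0.00429) and Zeb2, a repressor of epithelial genes in crest cells, from 254 to 206 CPM (-0.30, FDR 0.00996). The call of Sox9 was lost without Bbs8+/+ replicate 2 (FDR 0.0671), and that of Zeb2 without Bbs8+/+ replicate 1 (FDR 0.0842) or 4 (FDR 0.0640) or without Bbs8-/- replicate 1 (FDR 0.0502) or 2 (FDR 0.103), and at reduced depth (FDR 0.0742). The values of Snai2, Sox5, Tfap2a and Tfap2b, which did not pass, were -0.59 (FDR 0.268), -0.07 (FDR 0.884), -0.06 (FDR 0.954) and 0.04 (FDR 0.967).

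Mlph encodes melanophilin, the linker that ties melanosomes to the motor myosin Va, and its loss dilutes coat colour. The gene (ENSMUSG00000026303, chr1:90915085-90951142, plus strand) was at 219, 243, 261 and 184 CPM in Bbs8+/+ and 197, 180.1, 185 and 231 CPM in Bbs8-/-. The genotypes overlapped, since the lowest wild-type library lay among the mutant values and the highest mutant library among the wild-type values. The log2 fold change was -0.19 (SE 0.081, 95% interval -0.35 to -0.03, FDR 0.282). It moved with single libraries, to -0.11 (FDR 0.614) without Bbs8+/+ replicate 3 and to -0.28 (FDR 0.0599) without Bbs8+/+ replicate 4. Of 11 partners in melanosome transport 9 were tested, and edgeR and DESeq2 each called 0 in either direction (DESeq2 with no adjusted p for 2), with 3 lower and 1 higher at an unadjusted p under 0.05 and a median log2 fold change of -0.20. The other parts of the melanophilin complex were Myo5a (339.9 to 293 CPM on average, log2 fold change -0.21, FDR 0.0831) and Rab27a (-0.13, FDR 0.62). Myrip, which does the work of melanophilin in the RPE, was at 0.22 (FDR 0.306), and Sytl2, which encodes a Rab27 effector, at -0.21 (FDR 0.333).

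Pigment genes that melanocytes share with the RPE are read from both cell types in these libraries, and 6 of them fell. Of 13 such genes, all tested, edgeR and DESeq2 each called 6 lower and 0 higher (DESeq2 with no adjusted p for 1), and the median log2 fold change was -0.25. The pigment enzyme genes Tyrp1 (723.5 to 492 CPM on average, log2 fold change -0.56, FDR 5.55e-14) and Dct (10360 to 8721 CPM, -0.25, FDR 2.64e-11) fell. So did Pmel, which forms the fibrils of the melanosome (-0.25, FDR 2.51e-05), Mlana (-0.47, FDR 7.54e-07), the transporter gene Slc45a2 (-0.61, FDR 0.000309) and the channel gene Trpm1 (-0.28, FDR 0.000882). Tyr, the rate-limiting enzyme gene of melanin synthesis, was at 0.02 (FDR 0.955), with 263 to 288 CPM in Bbs8+/+ and 244 to 293 CPM in Bbs8-/-, and Cd63, Gpnmb and Slc24a5 were at -0.01 (FDR 0.976), -0.11 (FDR 0.382) and -0.18 (FDR 0.0843). Summed, the list, of which Dct made up the larger part, was at 17430 to 18310 and 14910 to 15350 CPM. Of the 14 RPE markers edgeR and DESeq2 each called 0 lower and 2 higher (DESeq2 with no adjusted p for 1), with 1 lower and 6 higher at an unadjusted p under 0.05. The 1 lower at that level was Rpe65 (log2 fold change -0.13, FDR 0.0843). Over all 7 partner lists 50 of 64 genes were tested, and edgeR and DESeq2 each called 12 lower and 0 higher (DESeq2 with no adjusted p for 9), with 22 lower and 2 higher at an unadjusted p under 0.05 and a median log2 fold change of -0.20. Without the pigment list, 6 of 37 were called, all lower.

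**Figure D3:**
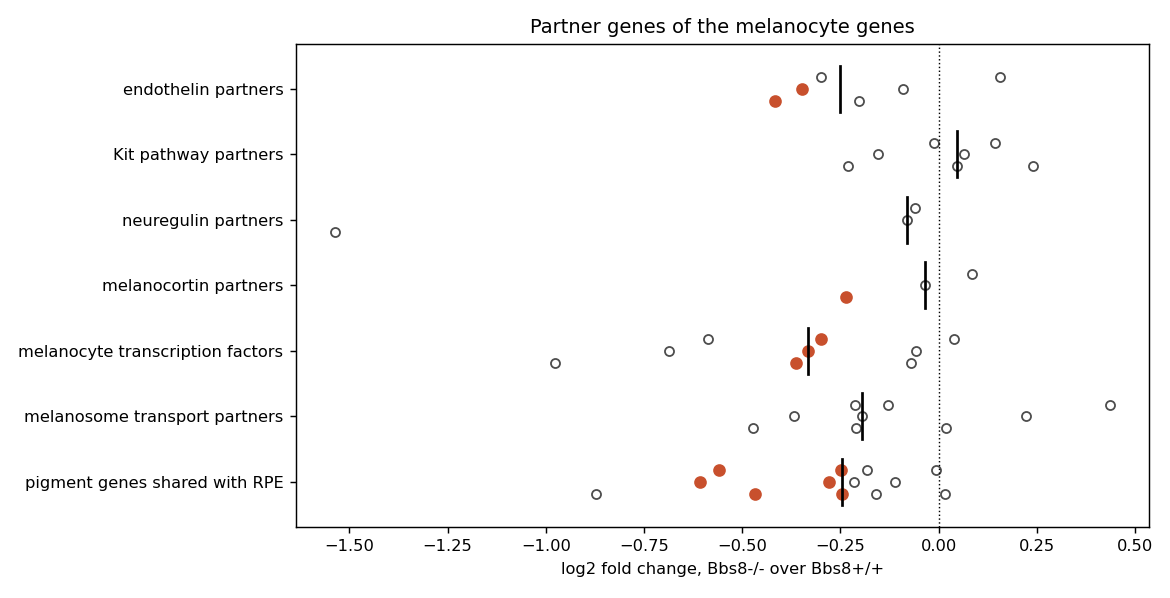
Log2 fold change in Bbs8-/- over Bbs8+/+ (horizontal axis) of the 50 tested genes of 7 partner lists, with 1 circle per gene (filled red, past an FDR of 0.05; open, not past it) and a black bar at each list's median. The 12 filled circles all lie below 0, with 6 among the pigment genes, 3 among the transcription factors, 2 among the endothelin partners and 1 among the melanocortin partners.

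To ask whether Ednrb changed apart from the other melanocyte genes, its level was set against each other gene within the same library, as the log2 ratio of their counts with 0.5 added. Against Sox10 the ratio went from 0.91 ± 0.10 in wild type to 0.54 ± 0.23 in the mutant (SD, n = 4), a difference of -0.37 without overlap (exact two-sided permutation p = 0.0286). The ratio to Kitl differed by -0.23 without overlap (exact p = 0.0286), and that to Erbb3 by 0.86 in the other direction, also without overlap (exact p = 0.0286). The ratios to Kit (-0.42, exact p = 0.0571), Mlph (-0.25, exact p = 0.0857), Mc1r (-0.54, exact p = 0.286) and Pax3 (-0.14, exact p = 0.314) overlapped between genotypes. The smallest p that 4 against 4 libraries allow is 0.0286, so over the 7 ratios, which share Ednrb, the lowest Benjamini-Hochberg adjusted p was 0.0667 and none passed 0.05. With that floor, 7 ratios and Ednrb picked as the called gene, the adjusted values say little on whether Ednrb changed apart from the other genes.

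**Figure D4:**
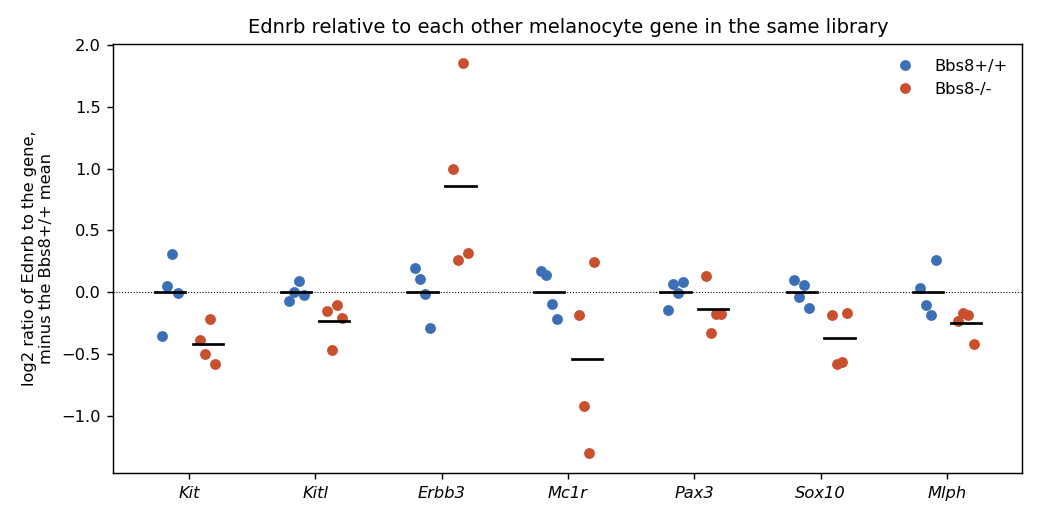
Log2 ratio of Ednrb to each other melanocyte gene within a library, less the Bbs8+/+ mean of that ratio (vertical axis), with 1 point per library (blue, Bbs8+/+; red, Bbs8-/-) and black lines at the means. The mutant libraries lie below the wild-type libraries for Kitl and Sox10 and above them for Erbb3, with overlap for the other genes.

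The genes whose levels were most like that of Ednrb over the 8 libraries were the collagen gene Col1a1 (Pearson r of log2(CPM + 1) 0.99), Ckap4 (0.984) and Ttyh3 (0.983), out of 9034 genes with a mean of at least 10 CPM. The points share genotype, so that a gene lower in every mutant library scores high. Col1a1, the main collagen gene of sclera, fell from a mean of 11698 to 8737 CPM (log2 fold change -0.42, FDR 1.96e-25), and Ckap4, an endoplasmic reticulum protein gene, had a log2 fold change of -0.43 (FDR 9.63e-05). Ttyh3, a chloride channel gene, was at -0.44 and did not pass the test (FDR 0.127).

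Other cell types that could carry Ednrb moved to different degrees. Fibroblast and scleral matrix markers summed to 34600 to 36430 CPM in Bbs8+/+ and 27240 to 28450 CPM in Bbs8-/-, with 3 of 8 called lower and 0 higher (5 and 1 at an unadjusted p under 0.05). The lower sum came from collagen genes, chiefly Col1a1 and Col1a2 (15100 to 10290 CPM on average, log2 fold change -0.55, FDR 1.55e-36). The fibroblast gene Dcn was at 5668 to 6013 CPM in wild type and 6110 to 6398 CPM in the mutant (0.09, FDR 0.174). Lum and Fmod were at 0.12 (FDR 0.631) and 0.02 (FDR 0.954). The receptor genes Pdgfra and Pdgfrb of the same list were below 0, at -0.25 (FDR 0.384) and -0.35 (FDR 0.193), and did not pass the test. Müller glia and retina markers summed to 1271 to 1338 and 1112 to 1215 CPM, with 2 of 11 tested called lower and 1 higher (4 and 1 at an unadjusted p under 0.05). Endothelium markers overlapped, at 1073 to 1133 and 1066 to 1173 CPM, with 1 of 12 called, Egfl7, which was higher (log2 fold change 0.36, FDR 0.0081), a call lost without Bbs8+/+ replicate 2 (FDR 0.0863) or Bbs8-/- replicate 4 (FDR 0.103), with 3 lower and 1 higher at an unadjusted p under 0.05. The part of these cells in the level of Ednrb was not tested.

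**Figure D5:**
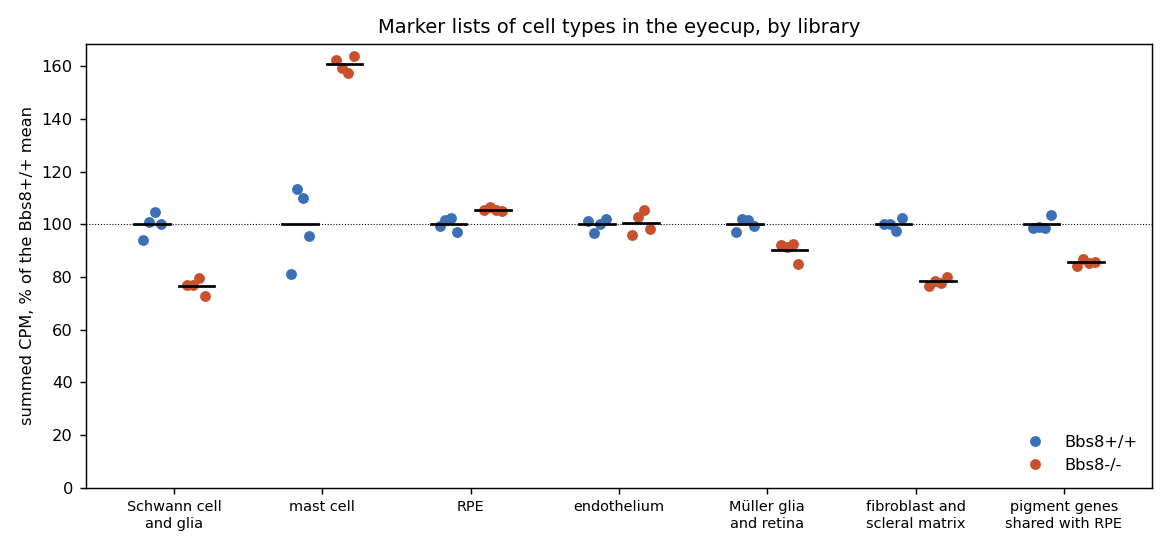
Summed CPM of 7 gene lists in each library as a percentage of the list's Bbs8+/+ mean (vertical axis from 0; blue, Bbs8+/+; red, Bbs8-/-; black lines, means of 4 libraries). Schwann cell, matrix, retina and pigment lists are lower and the mast cell and RPE lists higher in every Bbs8-/- library than in any Bbs8+/+ library, and the endothelium list overlaps.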

How the data were processed

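RNA of 4 Bbs8+/+ and 4 Bbs8-/- eyecup samples at P11 was sequenced by QuantSeq 3′ as single-end reads of 100 bases. The authors trimmed reads with BBDuk, aligned them with STAR to mm10 and deposited raw counts of uniquely aligned reads per Ensembl gene from htseq-count, 1 table per library, whose strand setting is not given in the sources used here. Of uniquely aligned reads, 42.1% to 43.4% fell outside genes in Bbs8+/+ and 44.1% to 44.4% in Bbs8-/-, without overlap. These reads were left out of totals, and the part of this difference in the results was not tested. Symbols came from GENCODE M21, which matched 31011 of 31053 identifiers.

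Genes that reached 1 CPM in 4 libraries or more entered the test on the counts with edgeR 4.0.16 in R 4.3.3 (TMM, quasi-likelihood F test, genotype as the factor, two-sided, Benjamini-Hochberg over 13813 genes, FDR 0.05). A CPM is a TMM-normalised count scaled to a total of 1000000, comparable between libraries and not between genes. SE is the absolute log2 fold change over the square root of F. Alternatives were DESeq2 1.42.0, edgeR's likelihood ratio test, other scalings and filters, a replicate block, an FDR of 0.01, thinning to equal depth, dropping mitochondrial genes with Gm42418, and omission of each library. On simulated counts with 13569 genes tested, 87 of 100 genes changed by 1 on the log2 scale and 34 of 100 changed by 0.5 were recovered, with 4 false calls.

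The 8 genes and all lists were chosen with earlier results of these data known. The genes named were the 8, every called partner gene plus up to 4 more per list by mean CPM, called Schwann cell, mast cell, RPE and endothelium markers, Ttc8, and the 3 genes of at least 10 CPM most like each called member. Some called markers are not reported here by name. The ratios to Ednrb were chosen after the data were seen, and the Fcer1a, Ms4a2, Edn2, Ece2, neuregulin, Pomc, agouti, Mrap, Mrap2 and Corin values were likewise added then. So were those of Rpe65, Rlbp1, Best1, Ttr, Col1a2, Dcn, Lum, Fmod, Pdgfra and Pdgfrb. No 2 files were identical, and all 12 pairs of libraries of a genotype differed by more than sampling noise.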

Additional observations from a re-analysis of the deposited data

Results flagged for a closer look

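Of 150 groups of 4 libraries examined, 8 held 1 library whose gap to the nearest of the others exceeded Dixon's 95% critical value, where chance gives about 7.5. The 8 melanocyte genes were not among them.

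In Bbs8+/+, Atrn was at 26.6 CPM in library 3 and at 36.2 to 37.7 CPM in the others. Sox9 was at 240.6 CPM in Bbs8+/+ library 2 and at 211 to 214 CPM in the others. Ttyh3 was at 46.1 CPM in Bbs8+/+ library 1 and at 49.5 to 49.9 CPM in the others. Spred1 was at 80.7 CPM in Bbs8-/- library 1 and at 62.1 to 65.3 CPM in the others.

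The melanosome transport list summed to 809.8 CPM in Bbs8-/- library 2 and to 709 to 719 CPM in the others. The pigment list summed to 18310 CPM in Bbs8+/+ library 4 and to 17430 to 17510 CPM in the others. Muscle markers summed to 776 CPM and surface epithelium markers to 20.6 CPM in Bbs8+/+ library 3, against 719.9 to 727 and 14.9 to 15.7 CPM in the others.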

How the results depend on the processing

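Over 18 alternatives, Ednrb was called lower in each (log2 fold change -0.45 to -0.42, FDR 2.15e-06 to 0.000343) and no other melanocyte gene was called, though DESeq2 gave no adjusted p for Mc1r and Erbb3. The number of partner genes called lower was 12 and ranged from 10 to 13, and 0 were called higher throughout. At an FDR of 0.01, 81 genes were called lower and 93 higher. Leaving out 1 library at a time gave 101 to 150 genes lower and 114 to 172 higher, with the lowest number lower, 101 genes, without Bbs8-/- replicate 1. Adding the replicate number as a block gave 129 genes lower and 134 higher and left 1 melanocyte gene and 12 partner genes called, but same-numbered libraries did not deviate together (correlations of 0.0203, 0.0063, -0.0249 and -0.0284 over 9035 genes), so that the numbers were not taken as pairs.

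Directions that turned belonged to genes that did not pass the test, and the cause was not tested. Without 1 library each, Kit ranged from -0.11 to 0.10 (above 0 without Bbs8+/+ replicate 1 or Bbs8-/- replicate 3), Mc1r from -0.10 to 0.43 (below 0 without Bbs8-/- replicate 3) and Sox10 from -0.11 to 0.0031 (above 0 without Bbs8-/- replicate 1) on the log2 scale. The ranges were -0.13 to 0.028 for Atrn, -0.040 to 0.022 for Cbl, -0.028 to 0.038 for Cd63, -0.014 to 0.36 for Edn1, -0.14 to 0.025 for Egfr, -0.22 to 0.035 for Erbb2, -0.032 to 0.15 for Mgrn1, -0.18 to 0.010 for Sox5, -0.013 to 0.13 for Spred1, -0.27 to 0.072 for Tfap2a, -0.070 to 0.12 for Tfap2b and -0.013 to 0.074 for Tyr. With libraries thinned to 1636725 counts, Cd63 was at 0.014, Egfr at 0.064, Spred1 at -0.00167, Tfap2b at -0.060 and Tyr at -0.00212. Of 24 other called genes named, 19 kept their call in every alternative that gave one. Sox9 lost it without Bbs8+/+ replicate 2 (FDR 0.0671), Ece1 when thinned (FDR 0.138), Egfl7 without Bbs8+/+ replicate 2 (FDR 0.0863) or Bbs8-/- replicate 4 (FDR 0.103), and Krt18 and Zeb2 in 4 and 5 alternatives (highest FDR 0.0871 and 0.103). Myo5a was called lower without Bbs8-/- replicate 2 (FDR 0.0332) and Slc24a5 without Bbs8+/+ replicate 3 (FDR 0.0187). Of the 8 melanocyte genes, Erbb3 and Mc1r had the fewest counts, 2 to 29 per library.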
